A study of Mus musculus with 9 samples.

Results

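The multi-subunit NADPH oxidase of phagocytes was followed through the genes of 6 of its subunits, Cybb, Cyba, Ncf1, Ncf4, Rac1 and Rac2. They were picked by gene symbol and make up 6 of the 54347 genes in the table of counts. Poly-A RNA had been sequenced from 3 mouse cell lines, each as 3 libraries numbered 1 to 3. Hox-WT, also called the wild-type line here, is a haematopoietic progenitor line. Hox-URE is a line of the same kind from a mouse homozygous for deletion of the URE (genotype UREd/d). The URE is the upstream regulatory element of Spi1, which encodes the transcription factor PU.1. URE-AML, labelled B22 and also called the leukaemia line here, is an AML blast-like line with the same UREd/d genotype, grown from the leukaemia of such a mouse. According to the study's methods, both Hox lines came from c-Kit+ bone marrow cells immortalised with an estradiol-dependent Hoxb8 fusion. The study's list of materials credits Hox-WT to an earlier publication and gives the other lines as made in-house. All 3 lines were kept in IMDM with 20% FCS, 10 ng/ml each of IL-3, IL-6 and SCF, and 1 µM β-estradiol as the labels give it, where the methods name a higher concentration. The wild type is thus 1 line and UREd/d 2 lines, so an effect of genotype cannot be told apart from a difference between lines, and URE-AML against Hox-URE compares lines within 1 genotype. Nothing states whether the libraries of a line are separate cultures, and p-values measure only the spread between these libraries. Both comparisons with Hox-WT share its 3 libraries.

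The oxidase passes electrons from NADPH across a membrane to oxygen, which makes superoxide, the first product of the respiratory burst of neutrophils and macrophages. Its membrane core is flavocytochrome b558, made of the catalytic subunit gp91phox (Cybb, also called NOX2) and its partner p22phox (Cyba). In resting cells the organiser p47phox (Ncf1) and p40phox (Ncf4) stay with other subunits in the cytosol. On stimulation they join the core together with a GTP-bound Rac protein, Rac2 mainly in blood cells and Rac1 in most cell types. Loss of a core or cytosolic subunit causes chronic granulomatous disease in people, and PU.1 is a known activator of several of these genes in myeloid cells.

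Totals ran from 20331064 to 28588718 counts per library, which put 3 counts, used as the floor of detection, at 0.104 to 0.153 CPM, the counts scaled to each library's normalised total. Spi1 had 2791 to 2932 counts per wild-type library, 0 to 1 per Hox-URE library and 62 to 148 in the leukaemia line. It was thus lower in both lines labelled UREd/d, but these differed from each other. The pan-leukocyte marker Ptprc (CD45) had 4053 to 4753 counts in Hox-WT but 0 in all Hox-URE libraries and 0 to 1 in URE-AML, although the blood cell exchange factor Vav1 stood at 180, 169 and 192 CPM on average. The progenitor marker Cd34 was likewise at 0 to 1 counts in URE-AML. Kit averaged 175 CPM in the wild-type line, 43.0 in Hox-URE and 97.0 in the leukaemia line.

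Upstream sequence is shown for the members that the promoter table held, because PU.1 is known to act at such sites in this family. RefSeq windows on GRCm38.p6 were found for Cybb, Cyba and Ncf1, and each line below gives 250 bases before the RefSeq start and 30 after it, 5′ to 3′ on the minus strand. Capitals mark GAGGAA, the core that PU.1 favours, or its reverse complement TTCCTC.
Cybb, chrX:9469295-9469574: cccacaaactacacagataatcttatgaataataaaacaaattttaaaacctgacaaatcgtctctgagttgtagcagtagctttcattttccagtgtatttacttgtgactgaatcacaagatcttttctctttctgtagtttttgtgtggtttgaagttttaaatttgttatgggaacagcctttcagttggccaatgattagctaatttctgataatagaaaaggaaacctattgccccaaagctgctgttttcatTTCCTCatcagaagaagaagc
Cyba, chr8:122432911-122433190: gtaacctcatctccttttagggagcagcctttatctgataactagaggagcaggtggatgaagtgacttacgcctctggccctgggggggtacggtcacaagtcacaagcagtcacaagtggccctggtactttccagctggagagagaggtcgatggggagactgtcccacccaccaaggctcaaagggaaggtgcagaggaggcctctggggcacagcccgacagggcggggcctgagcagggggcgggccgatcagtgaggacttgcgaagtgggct
Ncf1, chr5:134229596-134229875: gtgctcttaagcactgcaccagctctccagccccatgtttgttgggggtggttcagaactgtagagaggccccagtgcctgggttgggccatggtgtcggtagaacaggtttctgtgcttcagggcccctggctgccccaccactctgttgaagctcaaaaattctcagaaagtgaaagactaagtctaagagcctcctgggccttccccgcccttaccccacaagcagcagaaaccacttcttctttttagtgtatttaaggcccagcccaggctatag

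The Cybb window held 1 match to GAGGAA on either strand, read as TTCCTC from base 10 after the start, and the other windows held 0. Of 32851 RefSeq promoters cut to the same 280 bases, 26.0% held at least 1 such match. The shorter ETS core GGAA, which every GAGGAA contains, matched 4 times in Cybb, 2 times in Cyba and 1 time in Ncf1 on both strands together, and 95.1% of all windows held it. CCAAT, or ATTGG on the other strand, matched 1 time in Cybb, 56 bases before the start, and 0 times in the others, against 36.1% of windows. The base composition also differed, with 34.3% G or C in the Cybb window, 60% in Cyba and 53.9% in Ncf1. The Cybb window lies inside the gene as GENCODE M21 draws it, 18.4 kb downstream of its outermost start, whereas the starts of Cyba and Ncf1 differed by 10 and 0 bases between the annotations. A match in letters is no evidence that a factor binds there.

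Between Hox-URE and Hox-WT, Cybb was the only member called, at an adjusted p below 0.05 with a change over 1.5-fold, and its level was the lower one in the line with the deletion. No member was called higher, while 15.9% of the 13082 genes tested were called lower and 21.3% higher, so 1 of 6 is near the share of all genes. In URE-AML, 4 members, Cyba, Ncf1, Ncf4 and Rac1, were higher than in Hox-WT, where 23% of tested genes were called higher. Cybb was called lower there, against 20.2% of tested genes. Against Hox-URE, the same 4 genes and Cybb were called higher in URE-AML (20.3% of tested genes) and no member lower (22.4% of tested genes). These calls came from edgeR's quasi-likelihood test on all 9 libraries with Benjamini-Hochberg adjustment over all tested genes, and every adjusted p of a gene given here is from that test. The median log2 fold change over all tested genes was 0.00 in each comparison.

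**Figure D1:**
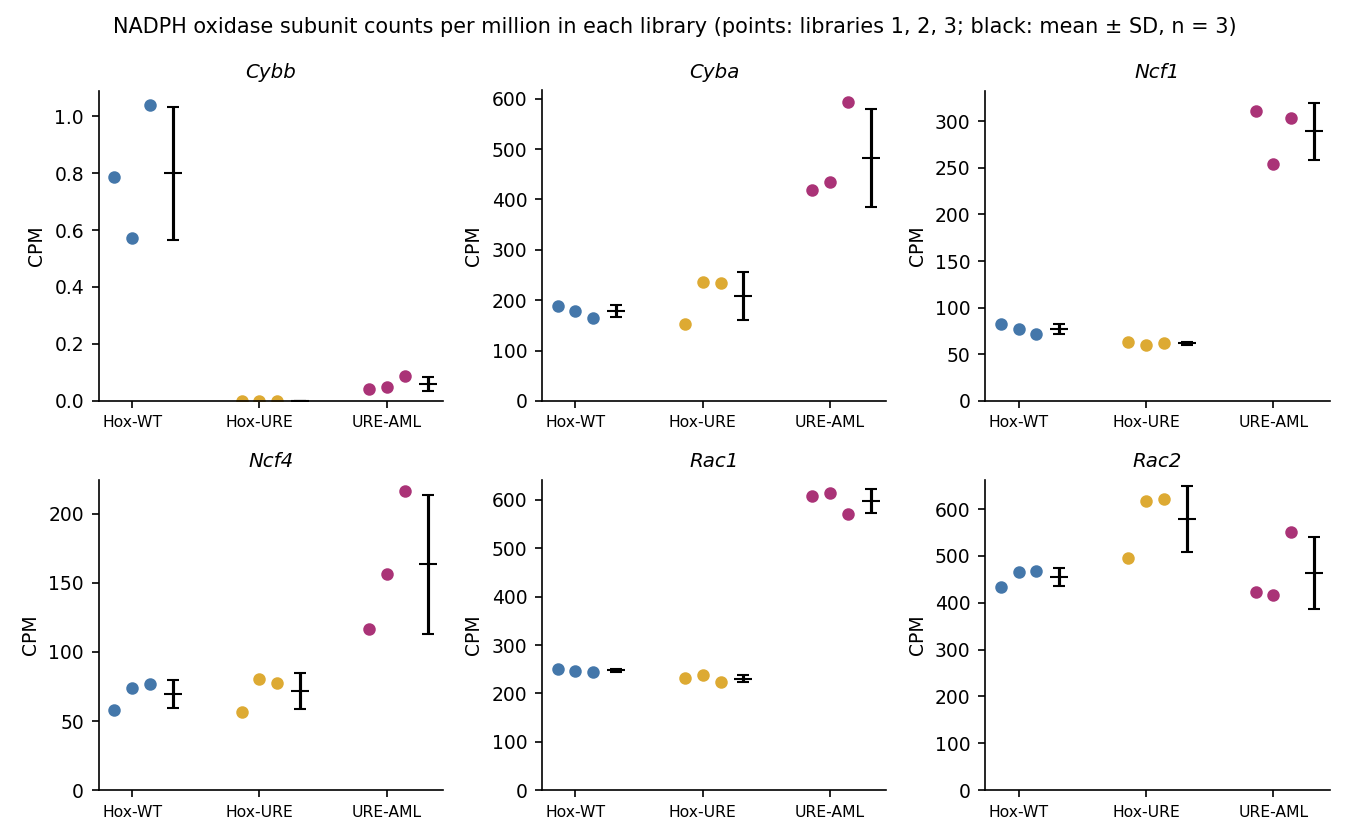
Level in CPM (vertical axes, each from 0) of the 6 subunit genes in the 3 libraries of each line (points), with the mean and SD (n = 3) in black. Cyba, Ncf1, Ncf4 and Rac1 are higher in all 3 URE-AML libraries than in any other library, and Cybb is above 0.5 CPM only in Hox-WT.

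Cybb (ENSMUSG00000015340; GRCm38 chromosome X, 9435252 to 9487771, minus strand), which encodes the electron-carrying subunit, was barely detected in any line. It had 21, 16 and 30 counts in the Hox-WT libraries, 0 in each Hox-URE library, and 1, 1 and 2 in URE-AML. The Hox-WT libraries thus did not overlap the others, at 0.787, 0.572 and 1.04 CPM. With 3 counts per library as the floor, the fall of Cybb in Hox-URE came to a level at least 6.19-fold lower (adjusted p = 0.000161). The summed 4 counts in URE-AML were 7.23% of the Hox-WT level (exact 95% interval 1.91 to 19.4%, adjusted p = 0.00057). Cybb passed the filter on low counts through Hox-WT alone, so a lower level elsewhere was partly required by that filter. Between URE-AML and Hox-URE, the 4 counts against 0 are at or under the floor and give no fold. The adjusted p of that call was 0.0318 and ranged from 0.0268 to 0.117 over the alternatives, and it missed 0.05 with the replicate block (0.0524), in DESeq2 (0.117), without the filter on low counts (0.0603) and without any 1 of the Hox-URE libraries or URE-AML library 3. The call was also lost when the test was made against a 1.5-fold change, and Cybb did not pass the filter with the libraries of these lines alone.

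Cyba (ENSMUSG00000006519; chromosome 8, 122424776 to 122432930, minus strand), whose product p22phox holds gp91phox in place and docks p47phox, was by contrast abundant in every library. It stood at 189, 178 and 165 CPM in the wild-type line, at 153, 236 and 235 CPM in Hox-URE and at 418, 436 and 594 CPM in the leukaemia line. Hox-URE library 1 lay under, and libraries 2 and 3 above, all Hox-WT libraries, and the URE-AML libraries lay above the rest. Relative to Hox-WT, the log2 fold change was 0.23 ± 0.18 (SE, adjusted p = 0.316) in Hox-URE and 1.44 ± 0.19 (2.72-fold, adjusted p = 8.14e-05) in the leukaemia line. URE-AML exceeded Hox-URE by 1.22 ± 0.18 on the log2 scale (adjusted p = 0.000266).

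The membrane core was therefore unequal at the RNA level in every line. Scaled by transcript length (the median over a gene's coding transcripts in GENCODE), Hox-WT libraries had 894, 1161 and 593 times as much Cyba as Cybb. The log2 ratio of Cybb to Cyba averaged -9.73 ± 0.49 (SD, n = 3) in Hox-WT. With Cybb set to the floor where a library had under 3 counts, it averaged at most -12.54 in Hox-URE and at most -13.73 in the leukaemia line. The differences from Hox-WT were therefore at most -2.81 for Hox-URE and at most -4.00 for URE-AML, and these bounds give no order between both lines with the deletion. These are descriptions with no test, since Cybb was under the floor in all 6 libraries with the deletion and passed the filter through Hox-WT.

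Ncf1 (ENSMUSG00000015950; chromosome 5, 134220053 to 134229625, minus strand), the organiser whose phosphorylation starts assembly, showed the largest rise in URE-AML among the members. It stood at 82.9, 77.3 and 71.9 CPM in the wild-type line, at 63.1, 59.8 and 62.4 CPM in Hox-URE and at 311, 254 and 303 CPM in the leukaemia line. The 3 lines did not overlap. The log2 fold change was 1.90 ± 0.10 (3.74-fold, adjusted p = 1.16e-07) for URE-AML against Hox-WT and 2.23 ± 0.10 against Hox-URE (adjusted p = 5.3e-08). Between the Hox lines it was -0.32 ± 0.10 (adjusted p = 0.0178), which is under the 1.5-fold limit and was not called.

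Ncf4 (ENSMUSG00000071715; chromosome 15, 78244801 to 78262580, plus strand), whose product p40phox binds the phagosome lipid phosphatidylinositol 3-phosphate, had like levels in both Hox lines. It stood at 58.0, 73.9 and 76.9 CPM in the wild-type line, at 56.9, 80.8 and 77.6 CPM in Hox-URE and at 117, 157 and 217 CPM in the leukaemia line. Both Hox lines overlapped (log2 fold change 0.04 ± 0.22, adjusted p = 0.893), and the URE-AML libraries were above all others but far apart. URE-AML exceeded Hox-WT by 1.23 ± 0.22 on the log2 scale (2.35-fold, adjusted p = 0.000776) and Hox-URE by 1.19 ± 0.22 (adjusted p = 0.000994).

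Most of the sequence of the members was their own. Of the 31-base words in their annotated transcripts, 0% also occurred in transcripts of other genes for Cybb and Ncf4, 0.579% for Rac1, 0.813% for Ncf1, 4.03% for Rac2 and 7.3% for Cyba.

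**Figure D2:**
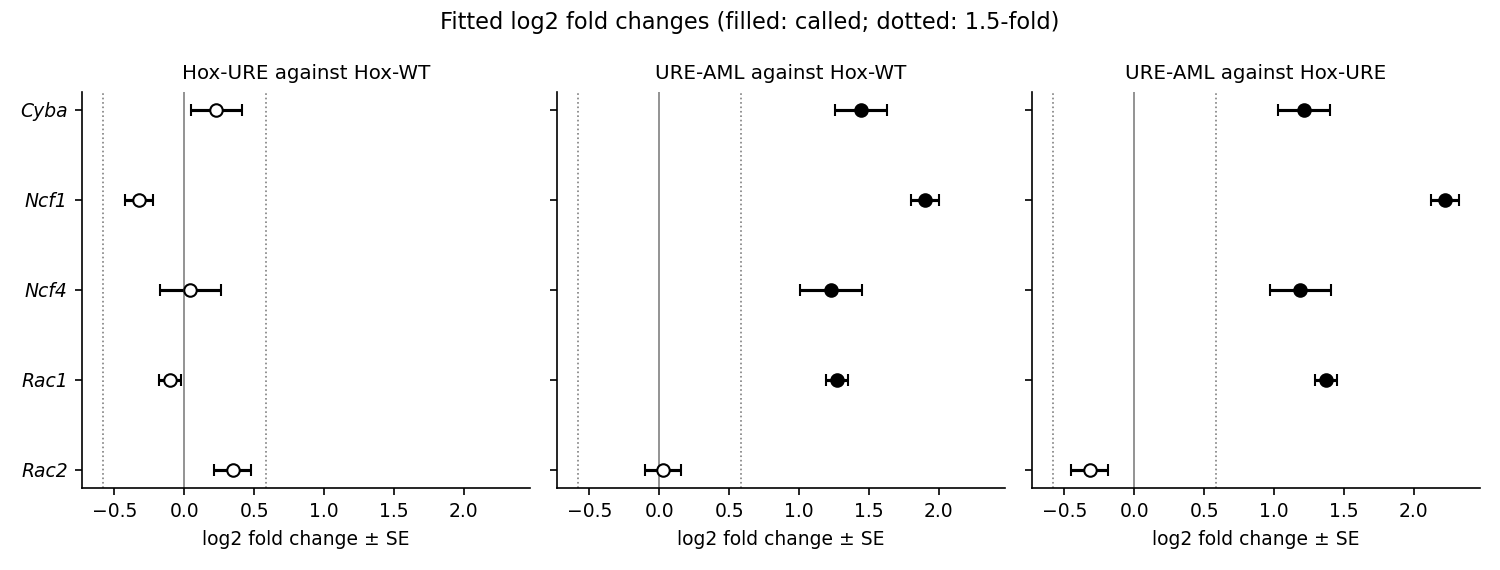
Log2 fold change with its SE (horizontal axes) of 5 subunit genes in the 3 comparisons. Filled points were called, dotted lines mark 1.5-fold, and Cybb is left out because its fitted fold against libraries at 0 is no estimate. All 5 lie between the 1.5-fold lines in the first panel, and 4 of them lie right of the 1.5-fold line in both URE-AML panels.

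Rac1 (ENSMUSG00000001847; chromosome 5, 143503634 to 143528036, minus strand), a small GTPase that also drives actin remodelling, varied little between the libraries of a line. It stood at 250, 247 and 245 CPM in the wild-type line, at 231, 238 and 223 CPM in Hox-URE and at 608, 615 and 570 CPM in the leukaemia line. The log2 fold change was 1.27 ± 0.08 for URE-AML against Hox-WT (2.42-fold, adjusted p = 3.43e-07) and 1.37 ± 0.08 against Hox-URE (adjusted p = 2.27e-07). For Hox-URE against Hox-WT it was -0.10 ± 0.08 (adjusted p = 0.288).

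Rac2 (ENSMUSG00000033220; chromosome 15, 78559167 to 78572783, minus strand), the blood cell form, was the only member not called in any comparison. It stood at 433, 466 and 467 CPM in the wild-type line, at 497, 617 and 623 CPM in Hox-URE and at 423, 416 and 552 CPM in the leukaemia line. All Hox-URE libraries were above all Hox-WT libraries, and URE-AML overlapped both. The log2 fold change of 0.35 ± 0.13 in Hox-URE had an adjusted p of 0.0489 but was under 1.5-fold, and over the alternatives its adjusted p ran from 0.0135 to 0.157. For URE-AML it was 0.03 ± 0.13 against Hox-WT (adjusted p = 0.885) and -0.32 ± 0.13 against Hox-URE (adjusted p = 0.0608).

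The balance of both GTPases shifted between the lines. On the length-scaled level, Rac2 made up 77.3, 78.8 and 79.0% of Rac1 plus Rac2 in the Hox-WT libraries, 80.9, 83.6 and 84.6% in Hox-URE and 57.8, 57.1 and 65.6% in URE-AML. The means were 78.4 ± 0.89%, 83.1 ± 1.9% and 60.2 ± 4.7% (SD, n = 3). No 2 lines overlapped, and relative to the wild-type line the share differed by -18.18 percentage points in URE-AML and by 4.69 points in Hox-URE. Each of the 3 pairs of lines had an exact two-sided permutation p of 0.1, the smallest this design allows (adjusted p = 0.1). Without length scaling the gap between Hox-URE and Hox-WT was 6.59 points. Rac2 then made up 63.4, 65.3 and 65.6% in the Hox-WT libraries but 41.0, 40.4 and 49.2% in URE-AML. Which GTPase made up more in URE-AML thus depended on the length scaling.

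Per kb of transcript, Cyba and Rac2 led and Cybb came last in every line. The median coding length used was 1646 bases for Rac2 and 691 for Cyba, where the longest transcripts have 3038 and 744. The order of Rac2 and Cyba in the Hox lines thus depends on the length used. In Hox-WT the order was Rac2 at 277, Cyba at 257, Rac1 at 76.3, Ncf4 at 61.7, Ncf1 at 28.0 and Cybb at 0.311 CPM per kb. Rac2 and Cyba overlapped there (263 to 284 and 239 to 274 CPM per kb), and no other neighbours in that order did. In Hox-URE the order was Rac2 at 352, Cyba at 301, Rac1 at 71.1, Ncf4 at 63.6 and Ncf1 at 22.4 CPM per kb, with Cybb at 0. There Rac2 overlapped Cyba, and Rac1 overlapped Ncf4. In URE-AML, Cyba led at 699 CPM per kb, ahead of Rac2 at 282, Rac1 at 184, Ncf4 at 145, Ncf1 at 105 and Cybb at 0.0225, where Ncf4 overlapped both Rac1 and Ncf1.

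**Figure D3:**
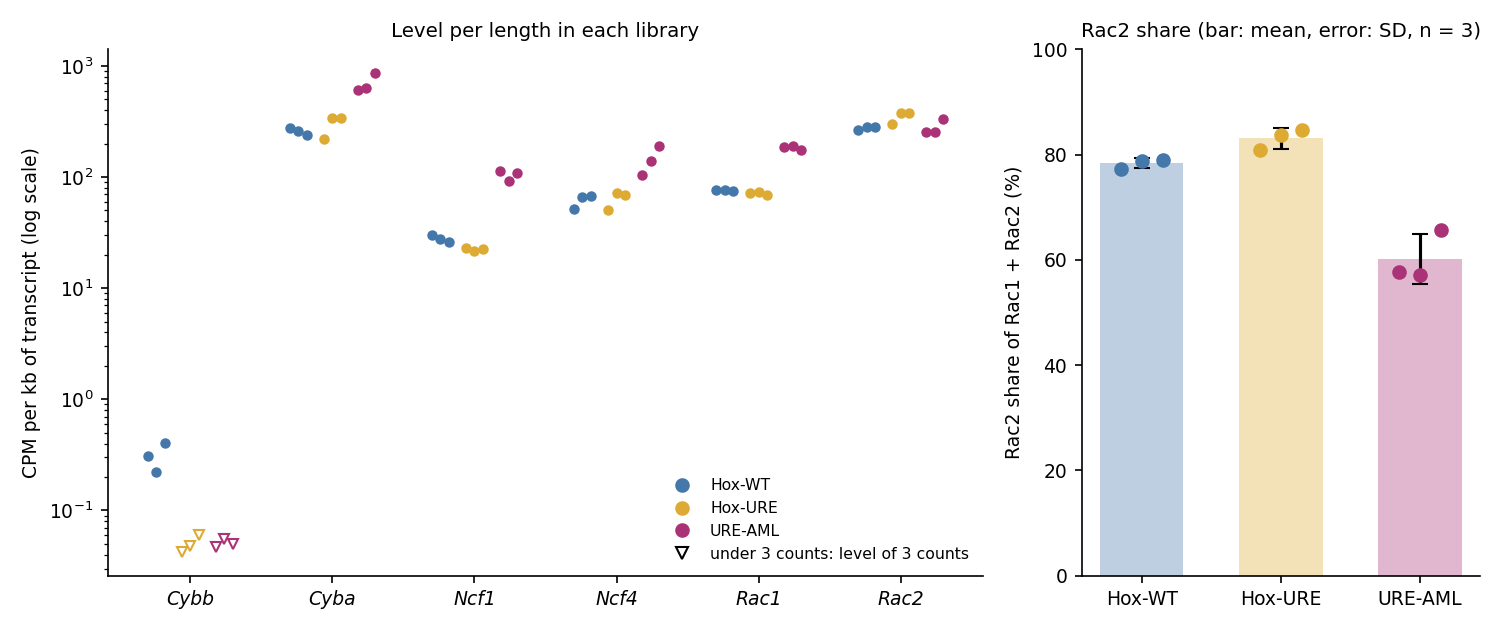
Left, length-scaled level (CPM per kb, log axis) of each subunit gene in every library, with open triangles at the level of 3 counts where a library had fewer. Right, the length-scaled Rac2 share of Rac1 plus Rac2 in percent, with the mean (bar) and SD (n = 3), at 78.4% (Hox-WT), 83.1% (Hox-URE) and 60.2% (URE-AML).

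Markers of other blood cell types moved with the lines too. Against Hox-WT, 15.9% of all tested genes were called lower and 21.3% higher in Hox-URE. In URE-AML 20.2% were called lower and 23% higher. The summed level of 8 neutrophil granule and calprotectin genes was 4014 to 6867 CPM in the wild-type line, 134 to 144 CPM in Hox-URE and 9146 to 20880 CPM in the leukaemia line. All 8 were called lower in Hox-URE, where Cybb was also called lower and the other 5 members were not called, Ncf1 having a change of -0.32 with an adjusted p of 0.0178. In URE-AML 7 of the 8 were called higher than in Hox-WT and 1, Mpo, lower. S100a8 averaged 38.4 CPM in Hox-WT, under 0.1 CPM in Hox-URE (0 to 4 counts) and 2791 CPM in URE-AML. Of 6 monocyte markers, 5 were lower and 1 higher in Hox-URE, and the summed level of 846 to 945 CPM there was mostly the chemokine receptor Ccr2, at 885 CPM. In the leukaemia line these 6 summed to 525 to 1141 CPM, beside 128 to 140 CPM in the wild-type line, with Cd14 and Ly6c2 called higher and Csf1r and Ly86 lower. Among macrophage markers Adgre1 (F4/80) averaged 274 CPM in Hox-WT and 1.43 and 3.73 CPM in the other lines, whereas Mertk and C1qa were at 0 in all 9 libraries. The 5 mast cell and basophil genes summed to 483 to 838 CPM in the wild-type line, 1613 to 5892 CPM in Hox-URE and 31.3 to 62.3 CPM in the leukaemia line. The sum was mostly Cpa3 in the wild-type line, and 4 of the 5 were called higher in Hox-URE. In the leukaemia line 3 of the 5 were called lower and 1, Mcpt8, higher, at 32.5 CPM beside 8.56 CPM. Of the lymphoid markers, the T cell gene Cd3e was at 0 in all libraries, and the B cell gene Cd79a was higher in Hox-URE, with 30 to 62 counts beside 3 to 7 in the wild-type line (adjusted p = 0.000475) and 0 to 2 in the leukaemia line. Their part in the subunit values was not tested, and in bulk RNA fewer cells of a type and less RNA per cell cannot be told apart.

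Other genes of the oxidase pathway were described by lists that were written with earlier results of these data known. Of the assembly partners, Cybc1, needed for gp91phox to reach its mature form, and Rap1a, a GTPase that copurifies with the flavocytochrome, were not called in any comparison. Cybc1 averaged 33.2, 30.7 and 45.9 CPM in the 3 lines and Rap1a 144, 185 and 135 CPM. Rac3 had at most 3 counts in any library. No other catalytic NADPH oxidase exceeded the floor. Nox3, Nox4, Duox1 and Duox2 were at 0 in all libraries and Nox1 had 0 to 3 counts, which is at or under the floor. Only Noxo1, the organiser of NOX1, was tested in this list of 9. It was called higher than in Hox-WT in both other lines, from 2 to 5 counts to 9 to 27 and 8 to 15 counts. Noxo1 did not pass the filter on low counts through Hox-WT, so a higher level elsewhere was partly required by that filter.

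Among regulators of Rac, 11 of 12 were tested. In the leukaemia line, relative to the wild type, 7 of these 11 were called lower (20.2% of all tested genes) and 1 higher (23% of all), with a median log2 fold change of -1.16. Dock2, the main Rac exchange factor of lymphocytes and neutrophils, averaged 237 ± 17.7 CPM in the wild-type line, 379 ± 79.7 in Hox-URE and 13.4 ± 3.46 in the leukaemia line, a log2 fold change of -4.14 ± 0.22 (adjusted p = 1.33e-07). Prex1, an exchange factor activated by phosphoinositides and Gβγ, also fell, at -2.54 ± 0.30 (adjusted p = 4.83e-05). Vav2 and Vav3, which act below tyrosine kinases, were lower in both lines with the deletion, at -1.69 and -0.66 in Hox-URE and -2.95 and -1.81 in URE-AML. Vav1 averaged 180, 169 and 192 CPM and was not called. Tiam1 averaged 135 CPM in the wild-type line, 2.86 CPM in Hox-URE and 26.1 CPM in the leukaemia line. The Rac GTPase-activating genes Arhgap25 and Bcr were also lower in URE-AML, at -1.16 and -0.70. Arhgdib, which holds Rac proteins in the cytosol, was the gene called higher there, at 0.84 ± 0.22 (adjusted p = 0.00868). In Hox-URE 1 of the 11, Dock2, was higher and 3 were lower, beside 21.3% and 15.9% of all tested genes, with a median of -0.10. So the rise of Rac1 in URE-AML stood beside lower RNA for most of the exchange factors measured, and Rac activity was not measured.

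Kinases and lipid enzymes that act on the cytosolic subunits were all tested. Of the 12, 2 rose and 2 fell in Hox-URE relative to the wild-type line, and 3 rose and 5 fell in the leukaemia line. Over all tested genes 21.3% rose and 15.9% fell in Hox-URE, and 23% rose and 20.2% fell in the leukaemia line, so most of these counts are near the background. The protein kinase C isoforms, which phosphorylate p47phox, moved in different directions. Prkcb averaged 6.97 CPM in the wild-type line, 155 CPM in Hox-URE and 66.5 CPM in the leukaemia line, log2 fold changes of 4.47 ± 0.24 and 3.25 ± 0.23 (adjusted p = 2.71e-07 and 9.98e-07). Prkca averaged 103, 98.7 and 1.04 CPM, and its change in URE-AML was -6.61 ± 0.27 (adjusted p = 2.23e-08). Prkcd was higher in URE-AML, at 197 CPM against 93.2 CPM in Hox-WT, and Prkcz had 0 counts in every wild-type library, 4 to 5 in Hox-URE and 26 to 42 in the leukaemia line. Pak1, a kinase activated by Rac that can phosphorylate p47phox, was at 1490 to 1584 counts in the wild-type line, 0 to 1 in Hox-URE and 0 to 5 in the leukaemia line, while Pak2 averaged 135, 138 and 171 CPM and was not called. Pla2g4a, Pik3cg and Pik3cd fell in the leukaemia line, by log2 fold changes of -1.09, -0.95 and -0.78.

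Genes for charge balance, NADPH supply and the handling of oxidants gave 1 call in each direction of 7 in Hox-URE and 2 in each direction in URE-AML, which is near the shares of all tested genes just given. Hvcn1, the voltage-gated proton channel that offsets the charge the oxidase moves, averaged 25.3 ± 3.8 CPM in the wild-type line, 33.6 ± 3.47 in Hox-URE and 298 ± 56.2 in the leukaemia line (log2 fold change 3.56 ± 0.17 against Hox-WT, adjusted p = 5.08e-08). G6pdx, the first enzyme of the NADPH-yielding pentose phosphate pathway, was higher in both lines with the deletion, at 294 and 383 CPM against 134 CPM in Hox-WT. Pgd, the next NADPH-yielding enzyme, averaged 690, 1031 and 872 CPM and stayed under the 1.5-fold limit. Mpo, which turns the hydrogen peroxide derived from superoxide into hypochlorous acid, averaged 5042 CPM in the wild-type line, 5.04 CPM in Hox-URE and 193 CPM in the leukaemia line. Sod1 was lower in URE-AML, at 175 CPM against 401 CPM in Hox-WT, and Sod2 and Cat were not called.

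Of 8 transcription factors known at promoters of this family, 6 were tested, and Hoxa9 and Hoxa10 were at 0 in all libraries. Besides Spi1, Irf8, a PU.1 partner in monocytes, fell to 3 to 5 counts in Hox-URE from 144 to 244 in Hox-WT, and had 41 to 165 counts in URE-AML (adjusted p = 0.0994 against Hox-WT). Cebpe, a factor of late granulocyte genes, averaged 53.6 CPM in the wild-type line, 6.23 CPM in Hox-URE and 284 CPM in the leukaemia line, log2 fold changes of -3.11 ± 0.20 and 2.41 ± 0.18 (adjusted p = 8.09e-07 and 1.53e-06). The ETS factor Elf1 was lower in URE-AML, at 46.4 CPM against 117 CPM in Hox-WT. Irf1 was called only between URE-AML and Hox-URE, at 28.0 against 14.2 CPM, and Cebpa averaged 305, 338 and 389 CPM with no call.

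**Figure D4:**
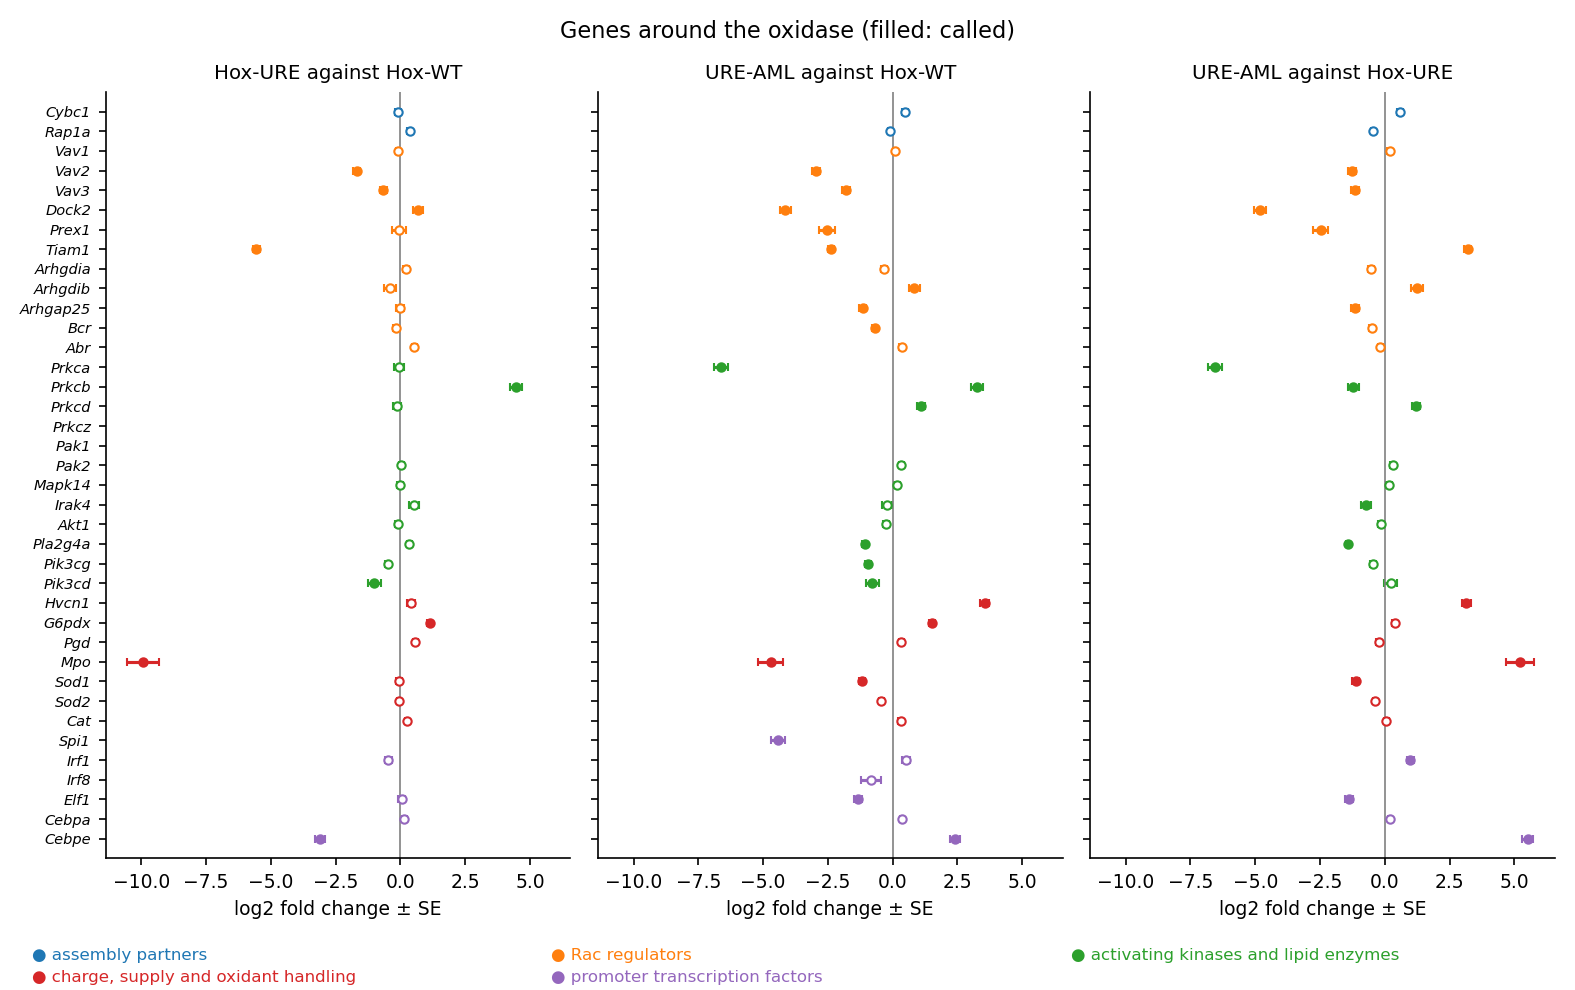
Log2 fold change with its SE (horizontal axes) of tested genes of 5 lists of the oxidase pathway, in colours (the list of other NADPH oxidases is not drawn), in the 3 comparisons, with called genes filled. Genes with at most 5 counts in every library of a compared line are left out of that panel (Pak1, Prkcz, and Spi1 or Irf8 where Hox-URE is compared). Rac regulators lie mostly to the left in URE-AML against Hox-WT, and Hvcn1 and Cebpe to the right.

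Both Ncf4 and Rac2 lie on chromosome 15, with starts 328 kb apart. Of 32 tested genes starting within 500 kb of either, both included, 11 rose and 4 fell in Hox-URE relative to the wild-type line, and 8 rose and 7 fell in the leukaemia line. Against Hox-URE, 4 were higher and 13 lower in URE-AML. Of all tested genes 21.3% rose and 15.9% fell in Hox-URE, 23% rose and 20.2% fell in URE-AML against Hox-WT, and 20.3% rose and 22.4% fell in it against Hox-URE. Between them lie Csf2rb2 and Csf2rb, near-identical genes for the IL-3-specific beta chain and for the beta chain shared by the IL-3, IL-5 and GM-CSF receptors, whose reads may be split with error. They start 60.9 and 81.0 kb from Ncf4 and were higher in Hox-URE, by log2 fold changes of 4.37 ± 0.67 (adjusted p = 0.000368) and 3.57 ± 0.14 (adjusted p = 4.59e-08), where neither Ncf4 nor Rac2 was called. Kctd17, 183.8 kb from Ncf4, was lower in both lines, at -3.26 and -3.65. Past Rac2, Card10 had 0 to 2 counts in Hox-WT and 460 to 755 in the other lines, and Cdc42ep1 had 480 to 723 counts in URE-AML and 0 in both Hox lines. Lgals2 had 9 to 31 counts in the Hox lines and 0 to 2 in URE-AML.

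**Figure D5:**
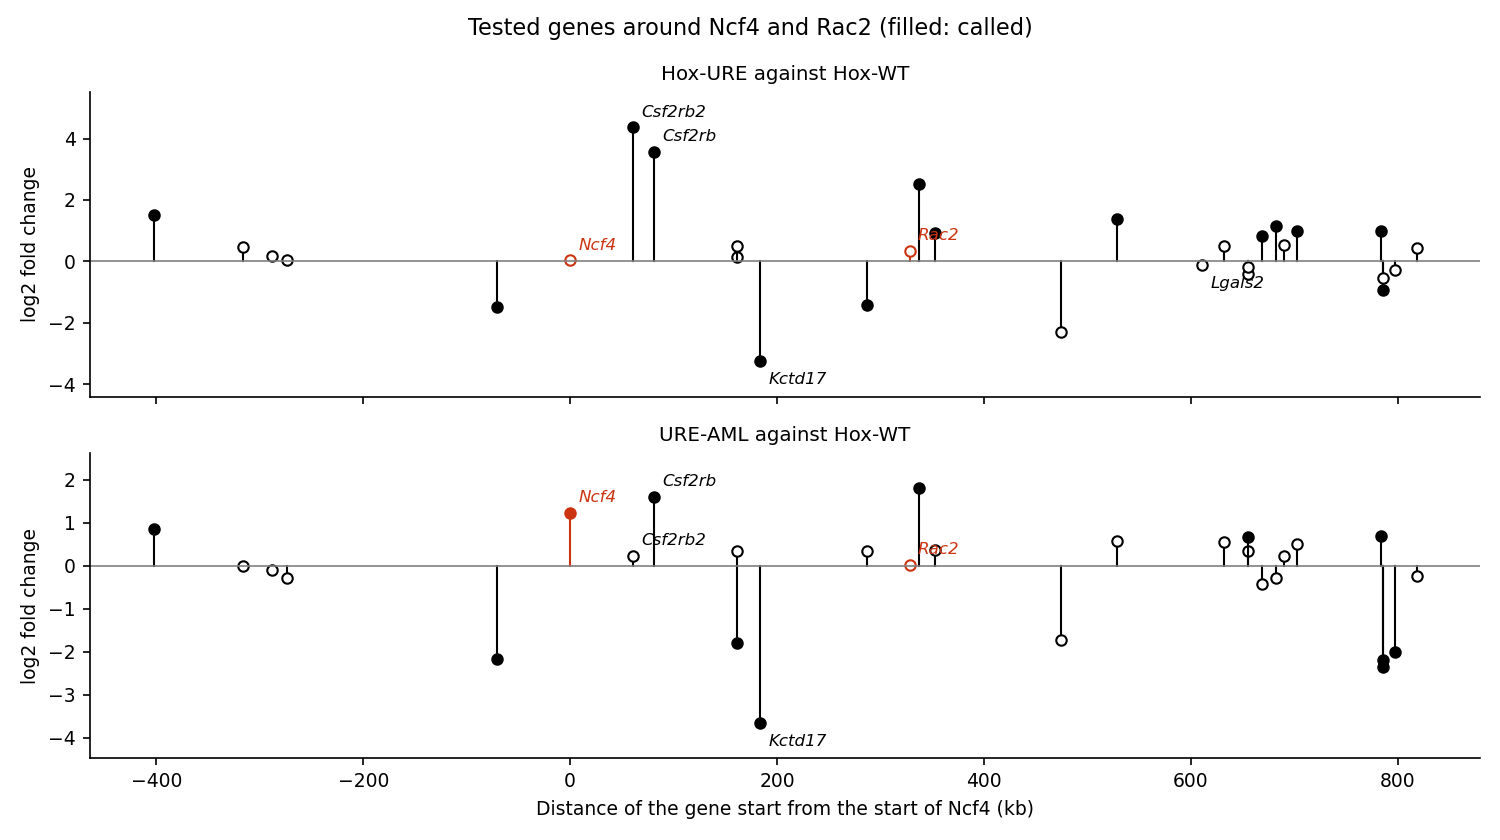
Log2 fold change (vertical axes) of tested genes against the distance in kb of their start from that of Ncf4, with Ncf4 and Rac2 in red and called genes filled. Genes with at most 5 counts in every library of a compared line (Card10, Cdc42ep1, and Lgals2 in the lower panel) are left out. In the upper panel Csf2rb2 and Csf2rb stand at 4.37 and 3.57 while Ncf4 and Rac2 lie near 0.

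The genes whose levels ran most like each called member were sought among 8611 tested genes with a mean of at least 10 CPM, by Pearson's r of log2(CPM + 1) over the 9 libraries. These r describe 3 lines of 3 libraries each, share library depth, and have no p. For Cybb they were Dnmt3a (0.987), Ccdc22 (0.980) and Btrc (0.980), and for Cyba, Cdca8 (0.985), Srd5a3 (0.985) and Tor1b (0.983). Cybb itself averaged under 10 CPM and was under the floor in all Hox-URE and URE-AML libraries. Its r thus mostly reflect a higher level in Hox-WT. Ncf1 was most like Sh2d5 (0.996), Ppp2r3a (0.995) and Alkbh4 (0.994), and Ncf4 most like Ndufv3 (0.987), Clasp1 (0.984) and Dbi (0.981). Rac1 was most like Gm6278 (0.998) and Gm8730 (0.997) among the genes reported. No member was among those closest to another.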

How the data were processed

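RNA-seq libraries of 3 lines (n = 3 each) were compared. The authors quantified stranded poly-A reads with Salmon and tximport on GRCm38 and deposited estimated counts per gene, used here rounded to whole numbers. Genes with too few counts were removed with filterByExpr (minimum count 10), which left 13082 of 54347 genes; 0.0499% of counts lay outside them. TMM scaling and edgeR 4.0.16 (R 4.3.3; quasi-likelihood F test, line as factor, all 9 libraries) gave log2 fold changes, with SE taken as the fold change over the root of F. Genes were called at an adjusted p below 0.05 and a change over 1.5-fold; the common biological coefficient of variation was 0.173. CPM are TMM-scaled. The Rac2 share was tested by exact permutation over libraries (scipy 1.17.1). Intervals and floors (3 counts per library) cover counting error only. Positions and lengths are from GENCODE M21, which held 54094 of the identifiers and lacked 253. RefSeq promoters matched 3 of the 6 members. Alternatives were DESeq2 1.42.0, other scalings, filters and thresholds, a replicate block and leaving out each library. The members and lists were chosen with earlier results of these data known. Genes named are all members, Spi1, called or quoted list genes, the 3 tested genes most like each called member and up to 6 neighbours of Ncf4 and Rac2 with the largest changes; a few genes these rules name are not reported here. Replicate libraries differed beyond sampling noise (chi-square per degree of freedom 18.1 to 99.8).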

Additional observations from a re-analysis of the deposited data

How the results depend on the processing

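Every member called against Hox-WT kept its call when any library was left out and in DESeq2. For Cybb, the fits with a library left out again rest on a filter that it passed through Hox-WT alone. The number of members called in Hox-URE against Hox-WT was 1, and it was 0 where at least 10 counts in every library were required, which removes Cybb, and 3 with no fold threshold, which adds Ncf1 and Rac2. Directions turned only for changes that were not called. Ncf4 in Hox-URE against Hox-WT went from 0.043 to -0.067 on the log2 scale with library size only, and from -0.075 to 0.178 with a library left out. Rac2 in URE-AML against Hox-WT went from 0.026 to -0.011 with upper-quartile factors, and from -0.119 to 0.1 with a library left out. Library size only moved all genes by -0.11 when Hox-URE was set against the wild-type line and by 0.11 when URE-AML was set against Hox-URE. Without length scaling, the difference in Rac2 share was 6.59 points for Hox-URE against Hox-WT and -27.83 for URE-AML against Hox-URE. Requiring 10 counts in every library brought the genes called from 4873, 5648 and 5591 to 3200, 3602 and 3553 (fewer genes tested).

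Same-numbered libraries correlated at 0.01 to 0.271 in their deviations from line means and differently numbered ones at -0.211 to 0.0659, and each library correlated best with its own number, save URE-AML 1 among the Hox-WT libraries (0.01 against 0.0102), a hint from the data. Since not every same-numbered pair exceeded 0.1, the libraries were not taken as paired. With the replicate block, 1, 5 and 4 members and 4908, 5679 and 5584 genes were called. Counts of 0 to 30 limit what can be said of Cybb.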
